A study of Mus musculus with 8 samples.

Results

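The genes described here are mouse ubiquitin ligase genes and ligase subunits of the Rnf (RING finger), Trim (tripartite motif), Fbxo, Fbxw and Fbxl (F-box) families whose transcripts carried N6-methyladenosine (m6A) peaks. They were chosen by name: a gene was taken where its symbol in either deposited peak list begins with one of these 5 family names followed by a digit, and 1 symbol, Rnf2, was left out. This gave 147 genes of the 12413 listed. The families contributed 61 Rnf, 41 Trim, 25 Fbxo, 7 Fbxw and 13 Fbxl genes, out of 84, 68, 36, 23 and 18 protein-coding genes of those names in the GENCODE M21 annotation.

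Primary mouse T cells were kept as controls or received PTC, an agent that the labels do not describe further, for 24 h. Each condition had 2 samples in which m6A-bearing RNA was immunoprecipitated and 2 input samples, all from total RNA taken with Trizol, which gives 8 samples in 4 groups. The labels give no strain, age, subset of T cells or method of T cell isolation, and leave it unsaid if each sample was a separate animal or culture. The deposited data are 1 list of peaks per condition with no values per sample, so nothing below has a replicate check, no test between the conditions was possible and no p-value was computed.

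Ubiquitin ligases place ubiquitin on chosen proteins and so set their stability, location or activity. Most RING and TRIM proteins, though not Trim14, Trim16 and Trim44, carry a RING domain that brings the substrate and a ubiquitin-charged conjugating enzyme together, whereas F-box proteins are the exchangeable substrate receptors of the SCF ligases, which are built on Skp1, Cul1 and Rbx1. In T cells ligases of these families act in receptor signalling, in tolerance, in the cell cycle and in antiviral responses. m6A is an internal mark of messenger RNA that occurs mostly in the sequence context DRACH (of which GGACT is a common form), in long exons and around stop codons, and it is known to affect RNA decay, splicing and translation.

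The 10 genes with the strongest peak in each list were used to show the sequence under the peaks, because these are the places where enrichment was best supported. In such a gene the GGACT nearest the middle of its strongest peak is given, 25 nt on the transcript's strand, 5′ to 3′, with GGACT in capitals and coordinates on GRCm38. The sequences are those of the GENCODE M21 transcripts. Only the letters GGACT were searched, on the transcript's own strand. Where the lists had a different nearest site, both are given.
Rnf213, both lists, chr11:119441378-119441402, plus strand: acctacatgaGGACTctggcctgca
Rnf146, control, chr10:29347334-29347358, minus strand: gggagtagctGGACTtaggctggac
Rnf146, PTC, chr10:29347323-29347347, minus strand: gacttaggctGGACTgtgacaccaa
Rnf145, control, chr11:44564801-44564825, plus strand: gatgtagacgGGACTcattgacttt
Rnf145, PTC, chr11:44564363-44564387, plus strand: atgtaggagaGGACTaggcaggaac
Rnf19b, both lists, chr4:129083799-129083823, plus strand: gcagcacagaGGACTcgctccatgt
Trim25, both lists, chr11:89016636-89016660, plus strand: agttcaaggtGGACTtcaccgaagc
Trim56, both lists, chr5:137113892-137113916, minus strand: gccagtgtggGGACTcaggtggagg
Fbxl5, both lists, chr5:43758664-43758688, minus strand: gagcactcttGGACTgaacctgtgt
Fbxl14, control, chr6:119480479-119480503, plus strand: tcactcttcaGGACTgccagaaact
Fbxl14, PTC, chr6:119480756-119480780, plus strand: catagcccagGGACTggacggcctc
Fbxw2, both lists, chr2:34822872-34822896, minus strand: tcctcaagcgGGACTtcctcaaact
The strongest peaks of Fbxo33 held no GGACT, and in Rnf139 only the wider PTC peak reached one. Each printed site lay inside a peak of both lists. The Rnf145 sites were in the 3′ UTR and the others in coding sequence of at least 1 annotated transcript. A match is a description of the letters and does not show that this adenosine was the methylated one. Across all peaks, a window reaching 50 nt to either side of the middle held GGACT for 53 of 388 control windows of these genes (13.7%, 95% interval 10.4 to 17.5) against 11.6% of all listed windows, and for 49 of 315 PTC windows (15.6%, 11.7 to 20) against 12.9%.

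Facts of the whole lists bear on what follows. There were 29586 peaks on 11390 genes in the control list, and 23368 on 10859 in the PTC list, so a gene had more chances to be in the control list. The authors' deposited table counts fewer peaks, 19420 for control and 15855 for PTC, with 36.07% and 33.03% of reads in them, and by which criterion it counted was not given. All 11 T cell marker genes looked for were listed, 10 of them in both lists and Trbc2 in the PTC list only. Of the markers of other cells, 5 of 6 for B cells and 5 of 6 for myeloid cells were listed in both lists as well. The lists hold no RNA levels, so the absence of a peak and a transcript too scarce to give one cannot be told apart, nor can fewer cells of a type and less RNA per cell. The part of other cells in the results was not tested.

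Of the 147 genes, 125 had peaks in both lists (85%, exact interval 78.2 to 90.4), where 79.2% of all listed genes did. A further 11 were in the control list only (7.48%, 3.79 to 13), against 12.5% of all genes, and 11 in the PTC list only (7.48%), against 8.24%. These shares lie near those of all genes, with the control-only share lower and its interval reaching the share of all genes. When only peaks with a −log10 FDR of 5 or more were kept (FDR is the authors' false discovery rate), 120 genes remained listed, of which 99 were in both lists (82.5%, against 79.5%), 11 in the control list only (9.17%, against 10.6%) and 10 in the PTC list only (8.33%, against 9.86%). With a fold enrichment of at least 4, taken as immunoprecipitate over input, 86 of 115 genes were in both lists (74.8%, 65.8 to 82.4), against 59.4% of all genes, which is the widest gap to all listed genes of these 3 settings.

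The control list gave 389 peaks on these genes and the PTC list 315. Among the 125 genes in both lists, 57 had more control peaks (45.6%, against 41.6% of all genes in both lists), 21 had more PTC peaks (16.8%, against 16%) and 47 had equal numbers (37.6%, against 42.4%). The length of transcript under peaks was greater in the control list for 91 of the 125 genes, smaller for 29 and equal for 5. This length was not computed over all genes, and the control list is the longer one, so the split is not shown to be particular to these genes. Its median was 1140 nt for control and 902 nt for PTC. A gene of the group carried a median of 2 peaks in either list, with a mean of 2.86 in control and 2.32 in PTC, beside means of 2.6 and 2.15 over all genes.

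**Figure D1:**
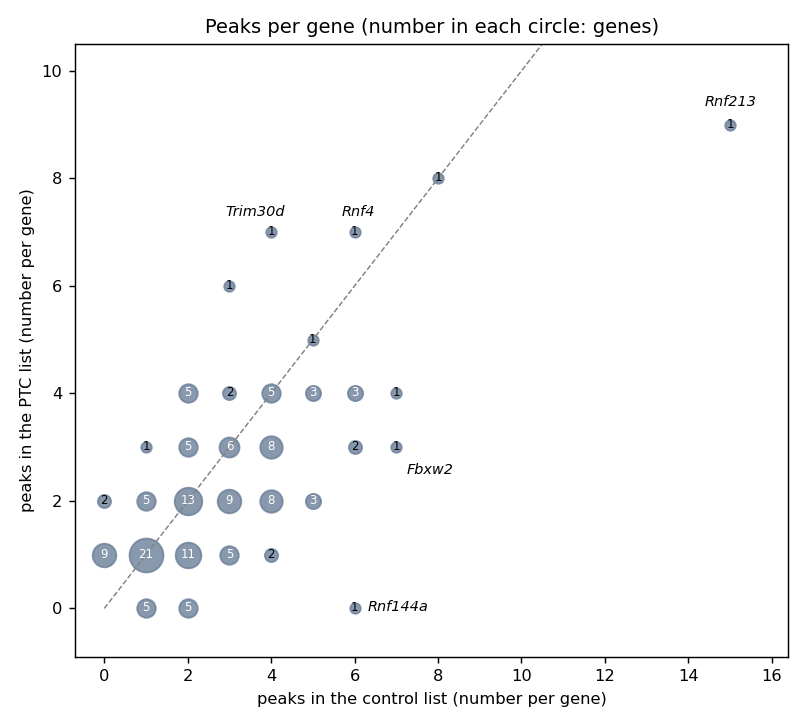
Peaks per gene in the control list (x axis, number) and the PTC list (y axis, number) for the 147 genes; the size of a circle and the number in it give how many genes share the position, and the dashed line marks equal numbers. Rnf213 stands apart with 15 control and 9 PTC peaks, and Rnf144a has 6 control peaks and none in the PTC list.

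Whether a peak had a partner in the other list depended on the criterion. Of the 389 control peaks, 254 were overlapped by a PTC peak on the same strand by at least 1 bp (65.3%, 60.3 to 70), against 60.2% of all control peaks. Of the 315 PTC peaks, 265 were overlapped by a control peak (84.1%, 79.6 to 88), against 78.8%. When 50% of the shorter peak had to be shared, 61.7% of control and 81% of PTC peaks had a partner, against 57.2% and 75.4% of all listed peaks. When midpoints had to lie within 100 bp, 38.3% of control and 47.3% of PTC peaks had a partner, against 38.7% and 49% of all listed peaks. The higher shares of the ligase genes were thus seen by the first 2 criteria and not by the midpoint criterion. The intervals treat peaks as independent, although peaks of 1 gene share its transcript. The share was higher for stronger peaks. At a −log10 FDR of 5 or more it was 87% in control (against 82.7% of all such peaks) and 97.5% in PTC (against 93.7%), and below 5 it was 36.1% (against 34.4%) and 61.2% (against 56.6%). Among control peaks of −log10 FDR under 3 it was 27.8%, from 10 to 30 it was 91.8%, and all 59 control peaks and all 60 PTC peaks of at least 30 were overlapped. Peaks without a partner were shorter, with a median width of 181 nt in control and 151 nt in PTC, beside 450 nt and 390 nt for peaks with one. Over all listed peaks the medians were 180 nt and 179 nt without a partner, and 390 nt and 331 nt with one. Some peaks faced several of the other list: 40 of the 389 control peaks overlapped 2 or more PTC peaks, and 30 of the 315 PTC peaks overlapped 2 or more control peaks. The share of such peaks over all listed peaks was not computed.

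**Figure D2:**
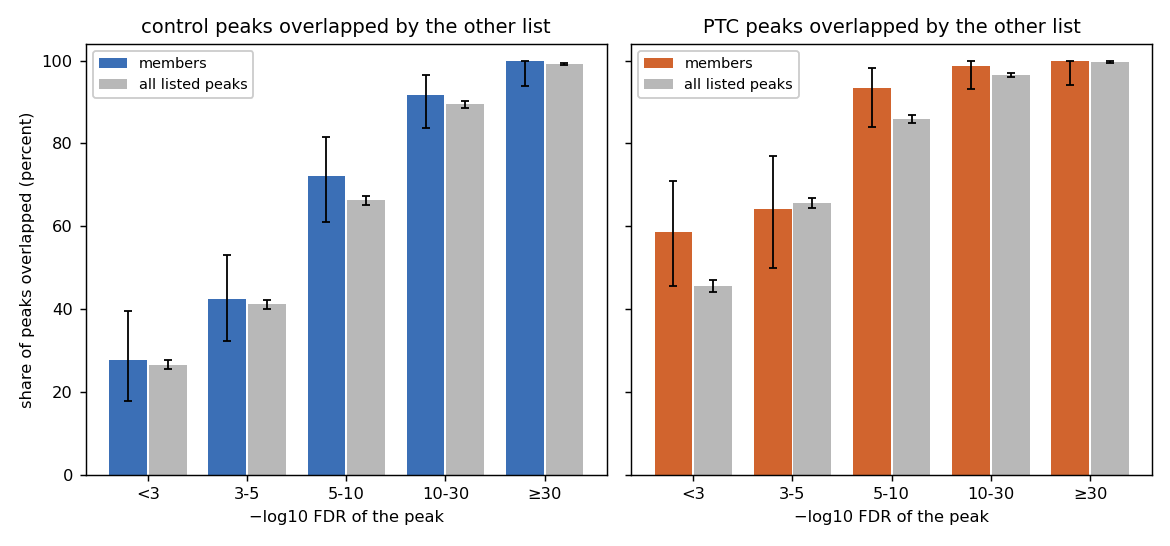
Share of peaks with a partner in the other list (y axis, percent) by the −log10 FDR of the peak (x axis), for the ligase genes (coloured) and for all listed peaks (grey); bars start at 0 and lines are exact 95% intervals for counting error. In the control list the share for the ligase genes goes from 27.8% in the weakest class to 100% in the strongest, and the grey bars take nearly the same course.

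The strongest peaks of the gene in both lists overlapped by at least 1 bp for 105 of the 125 genes (84%, against 80.4% of all genes in both lists). Such an overlap can be short, so it does not mean the same place in each gene. No peak of one list met a peak of the other in only 4 of these genes (3.2%, against 5.3%): Fbxl15, Fbxl17, Fbxo7 and Rnf141. Each of these had weak peaks, the strongest being a control peak of Fbxl17 at −log10 FDR 5.26. In Fbxo7, which acts with Parkin in mitochondrial quality control, the control peak lay in the coding sequence at chr10:86024551-86029209 (−log10 FDR 3.01) and the PTC peak, also coding, at chr10:86047794-86047944 (4.17).

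**Figure D3:**
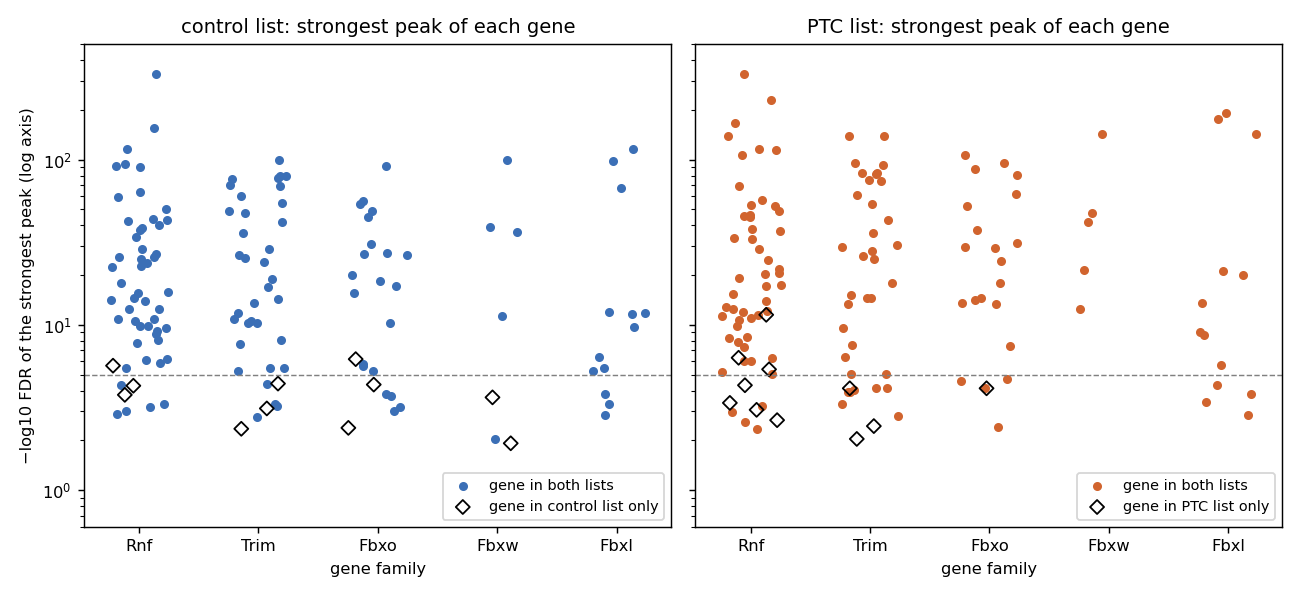
Strength of each gene's strongest peak (−log10 FDR, log axis) by family, in the control list (left) and the PTC list (right); filled points are genes in both lists, open diamonds genes in that list only, and the dashed line marks 5. The open diamonds lie between 1.92 and 6.2 in control and between 2.04 and 11.5 in PTC, and Rnf213 is drawn above all other points because its FDR is too small for the lists to hold.

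Most of the genes in 1 list only had no peak that reached −log10 FDR 5. The strength of 1-list genes was not computed over all genes, so weak support is not shown to be particular to this group. In the control list only were Fbxo9, Fbxo17, Fbxo31, Fbxw8, Fbxw17, Rnf31, Rnf144a, Rnf227, Trim28, Trim37 and Trim47. Their strongest peaks ranged from −log10 FDR 1.92 to 6.2 with a median of 3.77, and 2 of the 11, Fbxo9 (6.2) and Rnf227 (5.66), reached 5. In the PTC list only were Fbxo10, Rnf5, Rnf10, Rnf128, Rnf130, Rnf135, Rnf180, Rnf187, Trim6, Trim16 and Trim43b. Their strongest peaks ranged from 2.04 to 11.5 with a median of 4.13, and 3 of the 11, Rnf187 (11.5), Rnf135 (6.32) and Rnf5 (5.38), reached 5. For genes in both lists the medians were 15.8 in control and 19.2 in PTC, and 108 and 106 of the 125 reached 5. Over all listed peaks the median −log10 FDR was also higher in the PTC list, at 6.61 against 5.47 in control. A higher PTC value of a gene is therefore not shown to be particular to that gene, and such differences were not tested. For 4 of these 22 genes, over 20% of the strongest peak was made of 50-base stretches found in other genes: Fbxw8, Rnf5, Trim43b and Trim47. The control peak of Trim47 was wholly shared with the overlapping gene Trim65 and was overlapped by a PTC peak listed under that gene.

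The RING-between-RING ligases, which pass ubiquitin through a cysteine of their own, had 7 of 8 genes listed: 5 in both lists and Rnf31 and Rnf144a in the control list only. Rnf31 is the catalytic subunit of LUBAC, the complex that builds linear ubiquitin chains in NF-κB signalling. It had 2 control peaks in coding sequence, at −log10 FDR 2.73 and 3.77 with folds of 1.82 and 2.71. Both are among the weaker peaks of the list, whose median for these genes was 5.92. Rnf144a had 6 control peaks, all in the 3′ UTR within its last exon, at −log10 FDR between 1.73 and 4.28 and folds between 2.24 and 12.7. No single one of them reached 5. Of the 1554 genes in the control list only, 3 had 6 or more peaks, and 6 was the most any had. By contrast Rnf19a and Rnf19b, of which Rnf19b is known from natural killer cells, had some of the strongest peaks. Rnf19a held 2 control peaks (strongest 90.7) and 3 PTC peaks (strongest 107), and Rnf19b held 4 control peaks (90.8) and 2 PTC peaks (115). The strongest peaks of both genes were at the same place in the lists. Rnf14 had 3 peaks in each list and Rnf216 had 3 in each.

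Of the membrane RING ligases with a protease-associated domain, 6 of 9 were listed, 4 in both lists and Rnf128 and Rnf130 in the PTC list only. Rnf128, known as GRAIL, is a ligase of T cell anergy. Its 1 PTC peak, in the 3′ UTR at chrX:139672011-139672160, had −log10 FDR 3.37 and a fold of 5.83. Rnf130 had 1 PTC peak in coding sequence at 4.31, with a fold of 2.26. Neither reached 5. Rnf43, which removes Wnt receptors from the cell surface, had 3 control and 6 PTC peaks, and 4 of the 6 overlapped a control peak. In the control list its strongest peak was in the 5′ UTR (8.1), and in the PTC list it was in coding sequence (6.32). Rnf13 had 2 peaks in each list, and Rnf167 had 1 in each at the same start. Of the Rnf167 peaks, 61.3% in control and 100% in PTC was shared with Slc25a11, so they are uncertain.

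Nuclear RING ligases of DNA damage, histone H2B and SUMO-modified proteins were all listed, 7 of 7, and all in both lists at −log10 FDR of at least 5. Of all genes listed at that level, 79.5% were in both lists. More control than PTC peaks were found in 5 of the 7 and fewer in 1, beside 41.6% and 16% of all genes in both lists. Rnf20 and Rnf40 form the ligase of histone H2B. Rnf20 had 7 control and 4 PTC peaks, and Rnf40 had 6 and 4. Every PTC peak of both genes was overlapped by a control peak, and 3 control peaks of each gene were overlapped by a PTC peak. Rnf8 and Rnf168 act in sequence at DNA breaks. Rnf168 had 3 peaks in each list, the strongest in coding sequence (43.8 in control and 33 in PTC). The stronger peaks of Rnf8, at 9.19 in control and 13.9 in PTC, were wholly shared with an overlapping gene model on the same strand and are uncertain.

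Rnf4, a ligase that recognises SUMO chains, was the gene whose count of peaks most overstated its number of places. It had 6 control and 7 PTC peaks, but these came as pairs whose ends differed by few bases, and merging them left 3 control and 4 PTC places. No other gene of the group had overlapping peaks within a list. All 3 control places and the 3 PTC places that matched them lay in the 3′ UTR. In the control list the place nearest the stop codon was the strongest at −log10 FDR 64, followed by 21.3 and 9.68 for the middle and distal places. In the PTC list the distal place was the strongest at 19.2, beside 15.4 nearest the stop codon and 12 in the middle. The order of the places thus differed between the lists, a difference that was not tested. Rnf111, another SUMO-targeted ligase, had 5 control peaks (strongest 59.1) and 4 PTC peaks (52.8), with the strongest at the same place.

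The RING ligases of antiviral and NF-κB signalling had 11 of 11 genes listed, 10 in both lists and Rnf135 in the PTC list only. Rnf213, a giant protein with both an ATPase and a ligase domain whose variants predispose people to moyamoya disease, carried more peaks than any other gene of the group, 15 in control and 9 in PTC. In the control list only 8 of 11390 genes had 15 or more. The strongest peak was at chr11:119437682-119442363 in control and at chr11:119437802-119442273 in PTC, mostly within exon 28 of 67, a coding exon of 3603 nt. Its FDR was below the smallest that either list could hold, as for 41 control and 80 PTC peaks in all. The next strongest, in the last exon, had −log10 FDR 290 in control and 300 in PTC. All 9 PTC peaks were overlapped by a control peak. Of the 15 control peaks, 7 had no PTC peak on them, and these ranged from 2.65 to 27.4, so the places without a partner were the weaker ones of the gene.

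Rnf135, known as Riplet, activates the RNA sensor RIG-I. Its 1 PTC peak lay in coding sequence at chr11:80198658-80199044, with −log10 FDR 6.32 and a fold of 26.4. Rnf125, a ligase that acts in T cell activation and limits RIG-I signalling, had 1 peak in each list at the same place of its 3′ UTR, at 10.9 in control and 12.1 in PTC. Rnf11 and Rnf126 were likewise in both lists, with strongest peaks at 50.5 and 25 in control and 57 and 38 in PTC. Rnf34 had 2 control and 4 PTC peaks. A control peak of 1471 nt in 4 exon blocks lay where the PTC list had 3 peaks, and the other, like the remaining PTC peak, was wholly shared with Kdm2b on the opposite strand.

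Of the endoplasmic reticulum and other membrane-anchored RING ligases, 9 of 11 were listed, 8 in both lists and Rnf5 in the PTC list only. Peak numbers were equal for 7 of the 8 genes, beside 42.4% of all genes in both lists. Rnf139 and Rnf145 take part in sterol control at the endoplasmic reticulum. Rnf139 had 1 peak in each list, at 116 in control and 138 in PTC, of which 23.3% and 32.2% was shared with Tatdn1 on the opposite strand. Rnf145 had 2 peaks in each list, the strongest at 93.7 and 166. Rnf185 and Rnf5 work in degradation of misfolded membrane proteins. Rnf185 had 1 peak with the same start and end in both lists, at 42.8 and 37, whereas Rnf5 had 1 PTC peak (5.38) in the 3′ UTR, 33.1% shared with a gene model on the opposite strand. Rnf103 had 2 peaks in each list, with the strongest at 37.7 in control and 114 in PTC.

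Rnf146, which binds poly(ADP-ribose) and marks axin for degradation, is in no role list and had the strongest peak of the group after Rnf213 in both lists, at 156 in control and 228 in PTC. Over 50% of it, 54.1% in control and 60.2% in PTC, was also part of Echdc1 on the opposite strand. Whether the counting used strand is not given in the sources used here, so the reads of such pairs cannot be told apart. Over the group, 42 control and 39 PTC peaks had more than 20% of their bases in stretches shared with other genes. Of these, 18 and 17 were shared with an overlapping gene on the opposite strand, 11 and 5 with one on the same strand, and 13 and 17 with a gene elsewhere.

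TRIM proteins of antiviral defence and immune signalling had 17 of 19 genes listed, all 17 in both lists. More control peaks were found in 7, more PTC peaks in 6 and equal numbers in 4, with 63 control and 62 PTC peaks in all. Over all genes in both lists, 41.6% had more control peaks, 16% more PTC peaks and 42.4% equal numbers. Trim25, which ubiquitinates RIG-I, had 6 control peaks (strongest 99.4) and 4 PTC peaks (138). Trim56, which acts in STING and antiviral signalling, had 8 peaks in each list, its strongest at 76.7 in control and 138 in PTC. Its long 3′ UTR carried 7 control and 6 PTC midpoints. Trim27 had 3 control and 2 PTC peaks, with the strongest at 60.3 and 60.7.

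The Trim30 genes form a mouse cluster on chromosome 7. Trim30a, induced by signalling of Toll-like receptors and a brake on it, had 4 peaks in each list, the strongest at 79.9 in control and 95.5 in PTC. Trim30d had 4 control and 7 PTC peaks, and all 11 had a partner in the other list. Here 1 control peak of 1492 nt in 6 exon blocks stood where the PTC list had several shorter peaks, so the larger count did not mean more of the transcript under peaks. Paralogs of the cluster share sequence: 47.1% of a control peak of Trim30a and 17.7% of the longest Trim30d peak were made of 50-base stretches found in other Trim30 genes. Their values are therefore uncertain.

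Among the sites compared, 3 pairs from genes of 1 family read alike. Among 99 distinct GGACT sites from the strongest peaks of 85 genes, 4 of 4837 pairs from different genes differed at 6 or fewer of 25 bases. These pairs were chosen after their values were seen. The 3 pairs from genes of 1 family are shown, and the remaining pair, Fbxo5 with Trim45, shared 19 bases. All sites were taken from peaks, so their place inside a peak was fixed by the choice. How many pairs from genes of 1 family did not read alike was not counted.
Rnf113a1, chrX:37191984-37192008, plus strand: atatctgtaaGGACTacaaggagac
Rnf113a2, chr12:84417934-84417958, plus strand: atatttgtaaGGACTacaaggagac
Trim21, chr7:102559279-102559303, minus strand: ggatctttgtGGACTatgaggctgg
Trim27, chr13:21192393-21192417, plus strand: ggattttcttGGACTatgatgctgg
Trim30a, chr7:104429292-104429316, minus strand: acagtttaaaGGACTaagagacctc
Trim30d, chr7:104483503-104483527, minus strand: agagtttaatGGACTaagagacctc
Capitals mark GGACT, and all 6 sites lay in coding sequence. The Rnf113a sites shared 24 of 25 bases, those of Trim30a and Trim30d 23, and those of Trim21 and Trim27 21. Trim21 (an antibody receptor of the cytosol) and Trim27 lie on different chromosomes, both encode proteins with a carboxy-terminal PRY-SPRY domain, and neither strongest peak shared any 50-base stretch with another gene. The Trim21 peak had −log10 FDR 49 in control and 43.1 in PTC. For Rnf113a2 the peak had the same start and end in both lists, chr12:84417284-84418578, at 42.6 and 46.3, and that of Rnf113a1 had 9.61 and 12.8.

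Of the TRIM transcriptional cofactors 3 of 4 were listed, Trim24 and Trim33 in both lists and Trim28 in the control list only. Trim28, known as KAP1, is the corepressor recruited by KRAB zinc finger proteins. It had 2 control peaks in coding sequence at −log10 FDR 2.56 and 3.12, with folds of 1.79 and 1.85. These folds are low in a list whose median for these genes was 3.81. Trim24 had 1 peak in each list at the stop codon end of its 3′ UTR (19 in control and 17.8 in PTC), and Trim33 had 4 control and 2 PTC peaks (strongest 24.1 and 53.9). Of the other TRIM proteins, 8 of 15 were listed, 7 in both lists and Trim37 in the control list only. Trim59 had 1 peak in each list at 77 and 92.4, Trim39 had 4 and 3 with the strongest at 41.6 and 74.4, and Trim44 had 4 in each at 35.8 and 30.3.

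The F-box proteins with WD40 repeats had 7 of 9 genes listed, 5 in both lists and Fbxw8 and Fbxw17 in the control list only. Fbxw7 is the receptor for Notch, Myc and cyclin E. It had 5 peaks in each list, and every one had a partner in the other list. The strongest, over coding exons near the start of the protein, had −log10 FDR 36.6 in control and 47.5 in PTC, and the next, across the start of the 3′ UTR, had 32.8 and 26.9. Fbxw11, a receptor for the NF-κB inhibitor IκB and for β-catenin, had 4 peaks in each list with the strongest at 39 and 42.1. Fbxw2 had 7 control and 3 PTC peaks. Its strongest was in coding sequence in both lists (99.5 and 142), and the 4 control peaks with no partner ranged from 2.8 to 5.15.

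**Figure D4:**
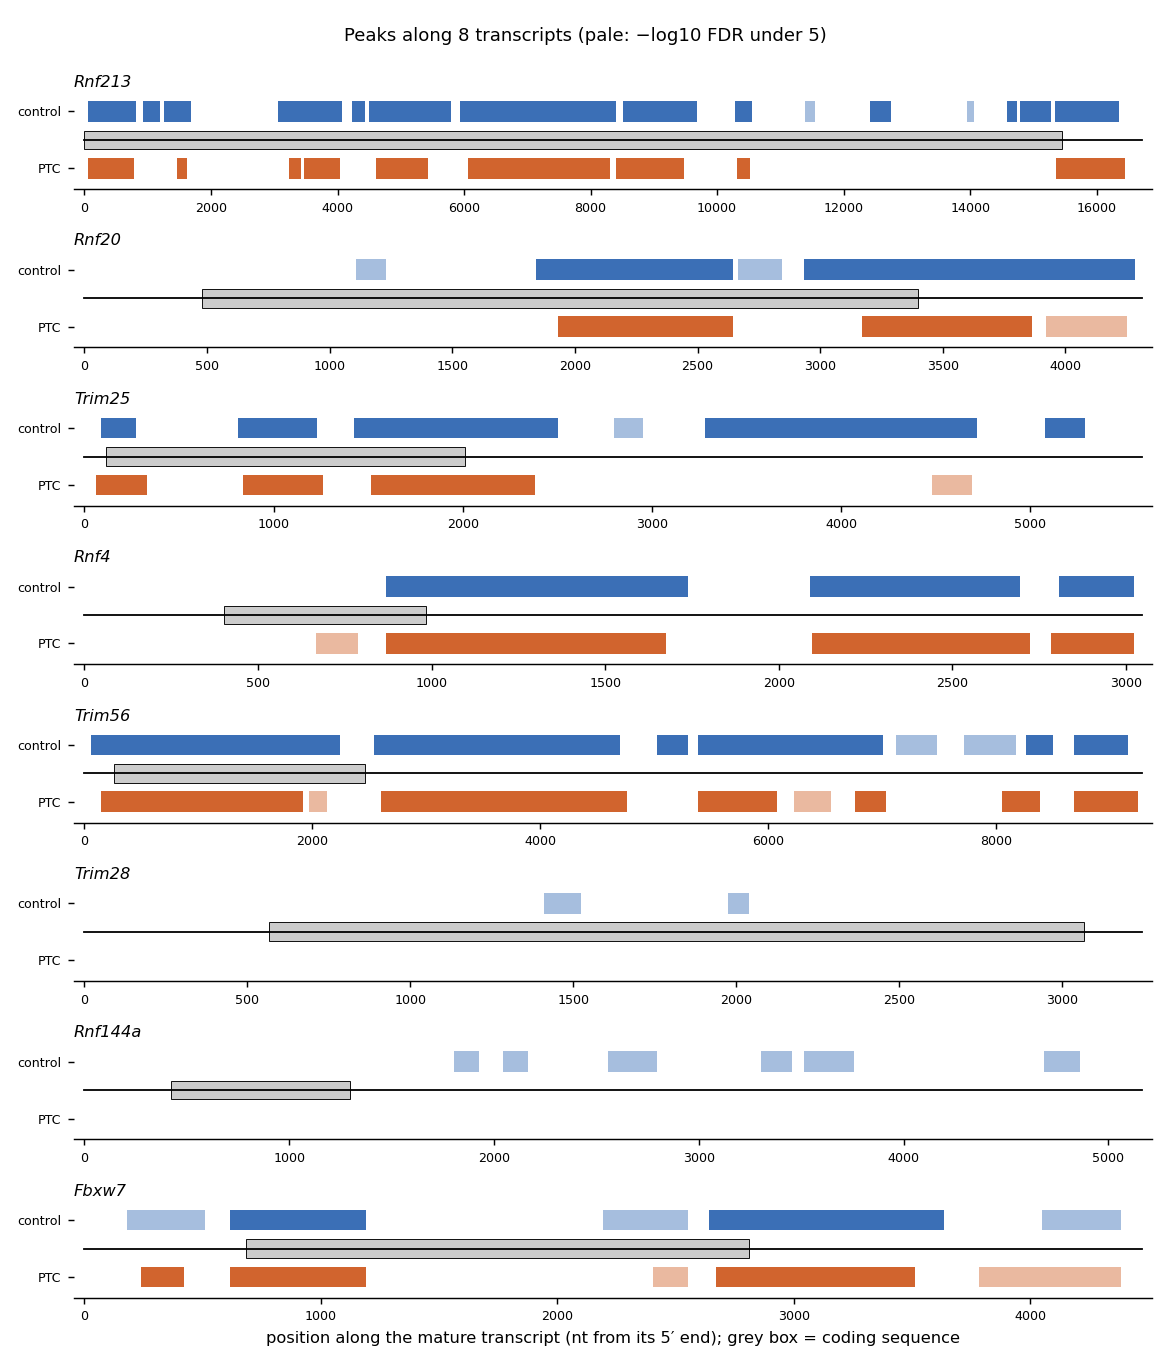
Peaks along 8 mature transcripts (x axis, nt from the 5′ end; grey box, coding sequence), control above and PTC below the transcript, with peaks of −log10 FDR under 5 in pale colour. In Rnf213 the control list has 15 peaks and the PTC list 9, in Rnf4 near-identical peaks are drawn over each other, Trim28 and Rnf144a have pale control peaks only, and 2 peaks of Rnf20 that lie off the drawn transcript are not shown.

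All 13 listed genes of the 18 F-box proteins with leucine-rich repeats were in both lists, 6 with more control peaks, 1 with more PTC peaks and 6 with equal numbers. The shares over all genes in both lists were 41.6%, 16% and 42.4%. Fbxl5 senses iron and marks iron regulatory proteins for degradation. It had 6 control and 3 PTC peaks, of which 1 in each list was strong (115 and 176) and the other 5 and 2 lay below 5. Fbxl14 had 3 and 2 peaks, the strongest at 97.8 and 190 in coding sequence. Fbxl4 had 5 and 2 peaks, with the strongest at 11.8 and 20. Fbxl19 had 4 control peaks and 1 PTC peak, the strongest at 5.49 and 2.86.

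Among the F-box proteins of cell cycle and genome maintenance, 7 of 8 were listed, 6 in both lists and Fbxo31, a receptor for cyclin D1, in the control list only with 2 3′ UTR peaks at 3.57 and 4.35. Fbxo5, known as Emi1 and an inhibitor of the anaphase-promoting complex, had 2 control and 3 PTC peaks with the strongest at 19.9 and 13.3. Fbxo28 had 5 control peaks, only 1 of them overlapped, and 2 PTC peaks, with the strongest at 30.8 and 62. Fbxo18 had 2 in each list (26.8 and 31.4), Fbxo42 had 2 and 1 (53.8 and 37.3) and Fbxo45 had 3 and 1 (26.6 and 29.5). In each of the last 3 the strongest peaks overlapped.

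The list holding receptors for immune, muscle and mitochondrial proteins had 4 of 5 genes, all in both lists. Fbxo38 is the receptor that marks the inhibitory receptor PD-1 in T cells. It had 3 control and 2 PTC peaks, the strongest in coding sequence at 45.1 and 88, and a 3′ UTR peak at 14.9 and 22.3. The remaining control peak was weak (2.79) and had no partner. Fbxo11, a receptor for Bcl6, had 1 peak in each list in the 3′ UTR, at 48.6 and 81. Fbxo32, the muscle atrophy gene known as atrogin-1, had 1 control peak at 3.17 and 2 PTC peaks, the stronger at 14.6 and overlapping the control peak. Of the F-box proteins that bind sugar chains 2 of 5 were listed, Fbxo6 in both lists with the same peak ends (5.79 and 13.5) and Fbxo17 in the control list only (2.38). Among genes in no role list, 36 of 46 were in both lists, 3 in the control list only and 7 in the PTC list only. Of these, Fbxo33, had 4 control and 3 PTC peaks with the strongest at 90.8 and 107.

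Coding sequence and 3′ UTR held similar shares of the peaks. Peak midpoints fell in 3′ UTRs for 44% of control peaks (39 to 49) and 45.4% of PTC peaks (39.8 to 51.1), against 46% and 49.7% of peaks in all protein-coding genes. They fell in coding sequence for 44.7% and 45.7%, against 42.1% and 40.9%. A stop codon was at most 200 nt away from 64 of 389 control midpoints (16.5%, 12.9 to 20.5), against 20.5%, and from 76 of 315 in the PTC list (24.1%, 19.5 to 29.2), against 25.7%. This distance ran along the joined exons of all transcripts of a gene, to the nearest stop codon of any coding transcript. It can therefore differ from the distance along a single transcript. The last exon held 66.8% of midpoints in control and 69.2% in PTC, against 65.9% and 70.2%. In the 250 nt after the stop codon the ligase genes had 9.77% of midpoints in control and 14% in PTC, where all protein-coding genes had 14.7% and 19.2%. In the 250 nt before it they had 9.51% and 15.6%, where all had 9.65% and 10.8%.

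**Figure D5:**
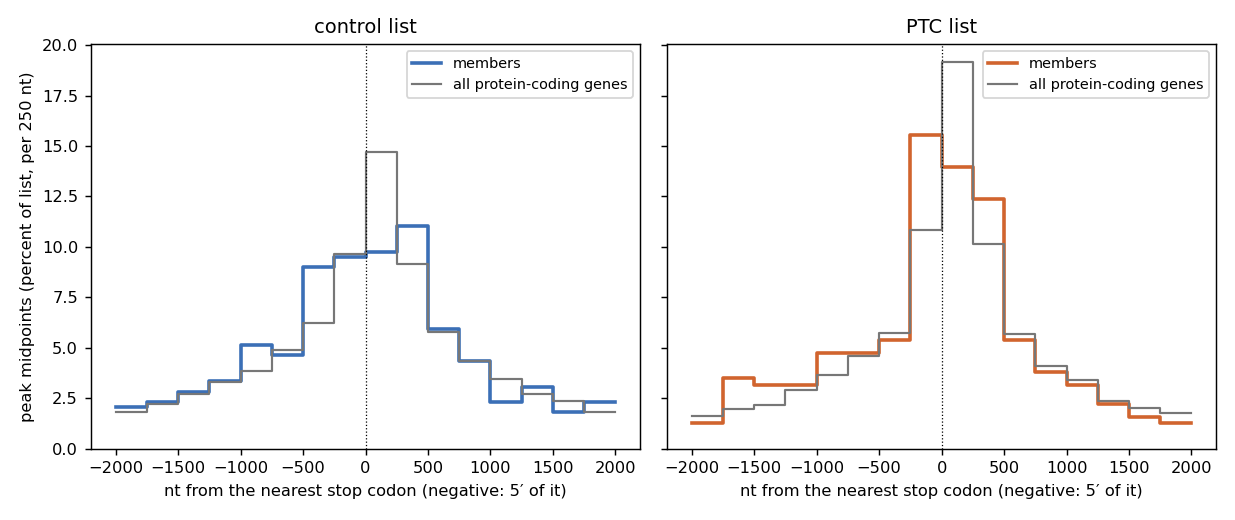
Distance of peak midpoints from the nearest stop codon (x axis, nt, negative before the stop). The y axis gives percent of each list's peaks per 250 nt, for the ligase genes (coloured) and all protein-coding genes (grey). Distances run along the joined exons of all transcripts of a gene and can differ from those along a single transcript. The grey line peaks just after the stop codon, at 14.7% in control and 19.2% in PTC, where the coloured line stands at 9.77% and 14%.

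Peaks near a stop codon were also counted by family. In the Fbxo genes 13 of 51 midpoints in control (25.5%, 14.3 to 39.6) and 18 of 40 in PTC (45%, 29.3 to 61.5) were within 200 nt of one, from 11 of 24 and 15 of 22 genes. In the Fbxl genes the counts were 3 of 36 (8.33%, 1.75 to 22.5) and 4 of 24 (16.7%, 4.74 to 37.4). The Rnf genes had 15.7% and 22.7% (from 22 of 54 and 25 of 58 genes), the Trim genes 15.1% and 20.4% (from 16 of 38 and 19 of 38 genes), and the Fbxw genes 20.8% and 18.8%. The Fbxo value in the PTC list was singled out after all 5 families had been seen. The intervals of the Fbxo and Fbxl genes overlap in both lists, and the difference between families was not tested.

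The genes that work with these ligases were described from 3 further lists. Over all listed genes, 79.2% were in both lists. Of 18 core subunits and regulators of Cullin-RING ligases 15 were listed, 14 in both lists and Cul9 in the control list only. Cul1, the scaffold of the SCF, had 5 control peaks (strongest 82.1) and 3 PTC peaks (123), and Cand1, which exchanges F-box proteins on it, had 5 (111) and 4 (142). Of 31 ubiquitin-activating and -conjugating enzymes 27 were listed, all 27 in both lists. Among them 14 had more control peaks, 1 had more PTC peaks and 12 had equal numbers. The shares over all genes in both lists were 41.6%, 16% and 42.4%. Cdc34, a conjugating enzyme of the SCF, had 1 peak in each list (79 and 115). All 29 of the other ligases known in T cells were listed, 27 in both lists and Ccnf and Nedd4l in the PTC list only. Of these 27, 19 had more control peaks, 1 had more PTC peaks and 7 had equal numbers, beside 41.6% with more control peaks over all genes in both lists. Cblb, which restrains T cell activation without CD28, had 5 peaks in each list (116 and 153), and Huwe1 had 11 control and 3 PTC peaks. Since these genes were chosen for known roles, and with earlier results of the same lists known, the counts are descriptions.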

How the data were processed

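m6A was measured by immunoprecipitation and sequencing in 8 samples of 4 groups. The lists hold no counts per sample, so read depth is unknown and the count test planned for such counts (edgeR) was not run. How peaks were called, at which threshold and on pooled or single samples is not given in the sources used here. BWA 0.7.12, MACS2 2.1.0 and the build GRCm39 are named, without a role, per the submitters' processing notes. The coordinates match GRCm38: in GENCODE M21 99.9% of control and 99.8% of PTC peaks lay in their gene, and all 309 joins between exon blocks of these genes fell at annotated exon ends. None was converted. Per the file headers, each peak carries the authors' p-value, FDR and fold enrichment, a ratio. The log10 p and log10 FDR columns are the authors' deposited scores, and FDR was used as −log10 FDR. A deposited summary table holds, per condition, a count of peaks and the reads in peaks in percent. Fold and FDR were used within a list only, and values of the lists stand side by side as descriptions.

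Overlap was found with bedtools 2.31.1 on the same strand over exon blocks. The midpoint of the blocks stood for the peak, and a region was that of any transcript there (coding sequence first). Distance to a stop codon ran along the joined exons of all transcripts of a gene, to the nearest stop codon of any protein-coding transcript. Exact Clopper-Pearson 95% intervals cover counting error only. Stretches of 50 bases found in transcripts of other genes, in either orientation, marked shared sequence. The functions were tested on simulated data. Genes were named where they were in 1 list only, among the 10 strongest of a list, the 8 with most peaks, the 6 with the largest difference in peak number each way, the 4 strongest of a role list, in both lists without an overlap, or among 14 genes known in T cells. A gene that this rule names is not reported here. The others (Rnf8, Rnf113a1, Rnf113a2, Rnf168, Trim21, Trim45 and the genes of the 3 pathway lists) were chosen after their values were seen. The members, role lists and pathway lists were chosen with earlier results of these data known.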

Additional observations from a re-analysis of the deposited data

How the results depend on the processing

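Of 62 recomputed values, 36 stayed within the interval of the reported share or, for counts, within 1.5 times, and 26 did not. The numbers of genes in both lists and in each list only are among the 36, in that each stayed within 1.5 times. With −log10 FDR of at least 5 required in both lists, 223 control and 199 PTC peaks remained and 78.5% of the control peaks were overlapped by such a PTC peak. The 87% given above for these control peaks counted any PTC peak as a partner. With a fold of at least 4, 179 control and 146 PTC peaks remained, 55.9% and 69.9% were overlapped, 38.5% and 38.4% of midpoints were in 3′ UTRs, 20.7% of control midpoints were near a stop codon and 20.5% of PTC windows held GGACT. With the control list shortened to the length of the PTC list, 73.2% of control peaks were overlapped. At that setting 121 genes were in both lists, 8 in the control list only and 15 in the PTC list only. The even split of 11 and 11 thus depended on the lengths of the lists. The shares over all genes at that setting are not given here. With 50% of the shorter peak shared as the criterion, 61.7% of control and 81% of PTC peaks had a partner, against 57.2% and 75.4% of all listed peaks. With midpoints within 100 bp as the criterion, 38.3% of control and 47.3% of PTC peaks had a partner, against 38.7% and 49% of all listed peaks. A stop codon was at most 100 nt away for 7.46% of control and 12.1% of PTC midpoints, and at most 400 nt for 33.2% and 42.2%. Shares over all listed peaks with these filters, the shortened list or these distances are not given here. Windows reaching 25 nt to either side held GGACT in 6.43% and 9.84% (all listed windows 5.92% and 6.75%), those reaching 100 nt in 22.8% and 25.6% (21.9% and 23.9%), GGAC was in 35.6% and 39% of windows (34.8% and 36.8%), and DRACH in 88.9% and 85.7% (87% and 88.7%), the last below all windows in PTC. These shares follow from the width or letters searched. Merging overlapping peaks of 1 list, an alternative chosen after seeing the data, left 386 control and 312 PTC peaks. No paired analysis was possible because the lists hold no values per sample and no groups share a sample number. For the same reason no replicate could be left out.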
